A study of Mus musculus with 12 samples.

Results

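Bone marrow taken on day 4 of treatment with an agonist antibody to CD137 was compared with untreated marrow, using 3 samples a side of the 12 in the series. The comparison covered 14883 of the 23134 genes in the table, those that reached 10 normalised counts in 3 or more of the 12 samples. All mice were C57BL/6 and had received Vk12653 cells, 1 transplantable line of mouse multiple myeloma, by intravenous injection, so the untreated mice carried myeloma too. The untreated samples were taken 10 days after the injection, which is treatment day 0. The treated mice received 10 µg of antibody clone 3H3 intraperitoneally 2 times a week, and their marrow was taken 14 days after the injection. Antibody exposure and days with myeloma therefore cannot be told apart. The material was total bone marrow cells, and its RNA is an average over all their types, in which fewer cells of a type and less RNA per cell cannot be told apart. The labels do not say whether each sample came from a separate mouse, so p-values measure the spread between these samples.

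CD137, encoded by Tnfrsf9, is a receptor of the tumour necrosis factor receptor superfamily that appears on activated T and natural killer cells. Agonist antibodies cross-link it, and its signal runs through TRAF adaptor proteins to NF-kB and to mitogen-activated protein kinases. These kinases switch on immediate early genes, such as Fos, Jun and Egr1, whose transcripts appear within minutes to hours of a stimulus and decay fast. The same genes are known to respond to cell stress and to tissue handling.

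The label of total marrow was checked against 13 marrow identity genes. The 13 tested marrow identity genes, which include the neutrophil genes S100a9 and Ngp, the globin gene Hbb-bs and the B lineage gene Cd79a, summed to between 1507198 and 1713151 normalised counts in untreated samples and between 1511173 and 1931266 at day 4, with overlap. Normalised totals lay between 19.16 and 20.84 M. The reads behind them, estimated from the spacing of low values, were 21.6 to 25.2 M in the untreated samples and 16.0 to 17.8 M at day 4. The 2 groups did not overlap in estimated depth, and 2189 to 2548 genes stood at 0 at day 4 against 1505 to 1723 before treatment. Day 4 replicate 2 was the lowest of its group in summed T cell, natural killer and cytotoxic genes, and untreated replicate 1 was the lowest of its group in summed T cell, mature B cell and erythroid genes.

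A gene was called higher or lower where its adjusted p in limma was under 0.05. Of the 14883 genes tested, 691 were called (4.64%), with 357 higher (2.4%) and 334 lower (2.24%). After quantile normalisation the split was 303 higher and 396 lower, and without day 4 replicate 1 it was 271 and 295. Rises passed a log2 change of 1 more often: 142 of the 357 did, against 47 of the 334 falls. The median log2 change was 0.75 among genes called higher and -0.56 among those called lower, and 0.0057 over all genes. Among all genes tested, 13.5% had every day 4 sample above every untreated sample and 12.1% had every one below, and 689 of the 691 called genes had no overlap. With the estimated depth as a covariate, all 691 kept their direction and 70 genes were called (58 higher, 12 lower), of which 65 were among the 691. The groups do not overlap in depth, so depth and group cannot be told apart for any of these calls, the 65 included. Leaving out 1 of the 6 compared samples gave between 269 calls (without day 4 replicate 3) and 566 (without day 4 replicate 1). It gave 313, 381 and 295 without untreated replicate 1, 2 or 3, and 400 without day 4 replicate 2.

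**Figure D1:**
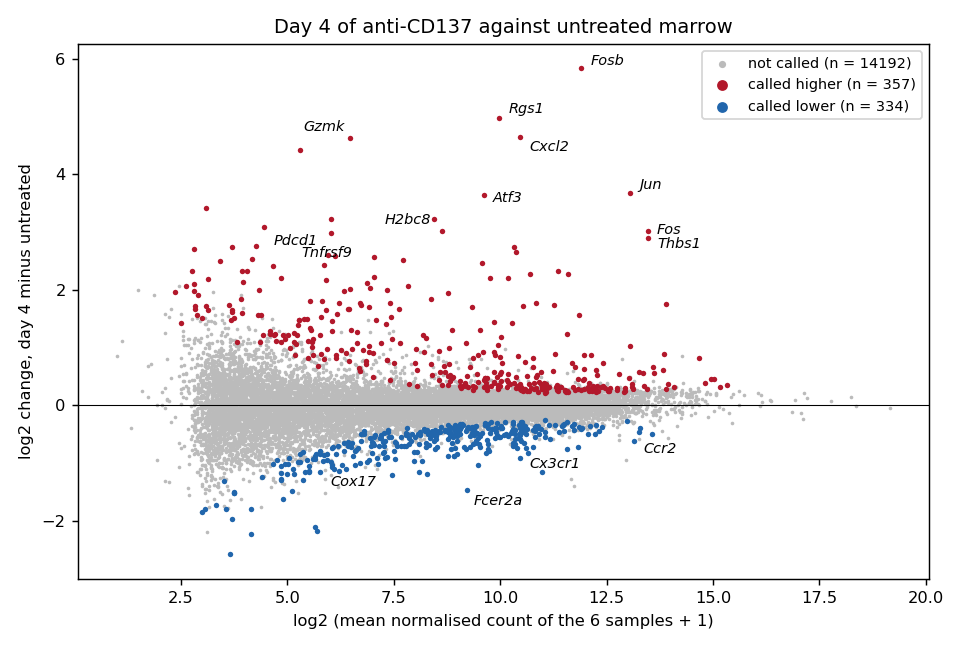
Each point is 1 of the 14883 genes tested, with log2 of its mean normalised count over the 6 samples plus 1 on the horizontal axis and its log2 change at day 4 on the vertical axis. Red points (357) were called higher and blue points (334) lower, and the red ones reach further from 0, up to 5.83 for Fosb.

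**Figure D2:**
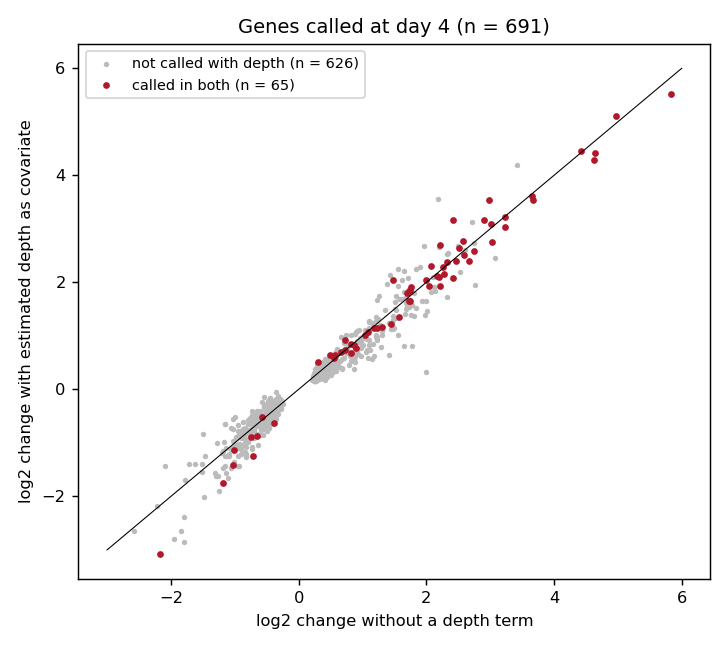
The log2 change of the 691 called genes is plotted without (horizontal) and with (vertical) the estimated depth as a covariate, and the line marks equal values. None of the points changes sign, and only the 65 red ones were called in both fits.

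Subunits of the AP-1 transcription factor rose in marrow on day 4, and Fosb had the largest rise of all genes that were called. Of 11 tested AP-1 genes, 7 rose and none fell, with a median log2 change of 1.22. The 7 were called in every fit that left out 1 of the 12 samples, and 6 of them with depth as a covariate. Their summed level was 8835, 8691 and 12177 normalised counts in the untreated samples and 48000, 50094 and 59701 at day 4. Fosb, which dimerises with Jun proteins, stood at 43, 159 and 306 normalised counts before treatment and at 5725, 7744 and 9021 at day 4 (log2 change 5.83 ± 0.48, SE; adjusted p = 6.76e-06). The lowest day 4 sample was far above the highest untreated one. Jund, the member of the Jun family known for its steady expression, went from 361, 472 and 412 to 1684, 2156 and 1874 (2.20 ± 0.13, adjusted p = 2.62e-07). Atf3, a stress-responsive repressor, went from 140, 91 and 109 to 1490, 1035 and 1823 (3.65 ± 0.19, adjusted p = 1.58e-07). The small Maf genes Maff and Mafk rose by 1.22 ± 0.20 and 0.55 ± 0.06. Fosl2 (-0.01 ± 0.09), Batf (0.39 ± 0.13) and Batf3 (-0.05 ± 0.34) were not called.

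The other immediate early genes followed, with 16 of 25 tested members higher, none lower and a median log2 change of 0.88. The count was 14 to 17 when 1 of the 12 samples was left out and 10 with depth as a covariate. Egr1, a zinc finger transcription factor, went from 279, 223 and 545 normalised counts to 1921, 2052 and 2622 (2.75 ± 0.24, adjusted p = 1.42e-05). The 3 Nr4a genes, nuclear receptors that follow antigen receptor signals in lymphocytes, all rose, Nr4a1 by 1.44 ± 0.15, Nr4a2 by 1.74 ± 0.22 and Nr4a3 by 1.58 ± 0.23. Zfp36, whose product destabilises cytokine mRNAs, stood at 6360, 6342 and 8501 before treatment and at 23410, 22415 and 24968 at day 4 (1.75 ± 0.15, adjusted p = 1.36e-05). The 3 day 4 samples were close to each other and well above the untreated ones. Klf2, which holds T cells quiescent, and Klf6 rose by 1.23 ± 0.13 and 1.03 ± 0.07. Ppp1r15a, a phosphatase subunit that restarts translation after stress, went from 530, 712 and 846 to 2095, 2112 and 2611 (1.72 ± 0.18). Rhob, a small GTPase gene, rose by 1.57 ± 0.16. Not called were Egr3 (-0.12 ± 0.24), Arc (0.78 ± 0.36), Klf4 (0.49 ± 0.13), Mcl1 (0.20 ± 0.07) and the inhibitors of differentiation Id1, Id2 and Id3, whose log2 changes were -0.22, 0.21 and -0.30. Btg2 and Zfp36l2 lost their calls in 8 and 4 of the 12 fits that left out a sample, with log2 changes down to 0.28 and 0.46.

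The promoters of the genes that rose were searched for the cyclic AMP response element, the site of CREB and ATF proteins through which kinase signals reach Fos, and for other sites of immediate early genes. RefSeq windows from 250 bases before to 50 after the start were matched by symbol to 9904 of the genes tested (12518 windows, GRCm38.p6). The full element TGACGTCA, searched on both strands, lay in 7.5% of the 320 windows of genes called higher, in 1.57% of the 318 windows of genes called lower, in 2.84% of those of all genes tested and in 1.79% of all 32851 windows. Its short core TGACG, which also counts the full element, lay in 39.4%, 21.4%, 29.2% and 20.8%, in that order. The AP-1 site TGANTCA lay in 7.19%, 6.29%, 5.61% and 7.81%, the serum response factor site (CArG box) in 2.81%, 1.89%, 1.28% and 1.63%, and the NF-kB site in 7.5%, 3.77%, 5.03% and 4.51%. Several windows can belong to 1 gene, and a match is only a run of letters. Among the 23 AP-1 and other immediate early genes that rose, 21 had a window, of which 14 held a core match in any of their windows and 7, Jun and Jund among them, did not. This count is per gene, and the shares above are per window, so they are not its background. Chosen here because they hold matches are Fos, Nr4a1 and Ppp1r15a, which hold 2, 4 and 3 core matches in capitals (CGTCA is the core on the opposite strand, and the Ppp1r15a window has 1 full element), and Cxcl2, with the run that its 2 overlapping NF-kB matches cover in capitals.
Fos promoter, chr12:85473640-85473939, plus strand: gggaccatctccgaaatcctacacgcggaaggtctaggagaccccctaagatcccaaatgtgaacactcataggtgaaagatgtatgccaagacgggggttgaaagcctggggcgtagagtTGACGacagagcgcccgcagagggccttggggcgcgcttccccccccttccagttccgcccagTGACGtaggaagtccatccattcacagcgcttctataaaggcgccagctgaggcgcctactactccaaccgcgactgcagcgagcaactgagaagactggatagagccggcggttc
Nr4a1 promoter, chr15:101266596-101266895, plus strand: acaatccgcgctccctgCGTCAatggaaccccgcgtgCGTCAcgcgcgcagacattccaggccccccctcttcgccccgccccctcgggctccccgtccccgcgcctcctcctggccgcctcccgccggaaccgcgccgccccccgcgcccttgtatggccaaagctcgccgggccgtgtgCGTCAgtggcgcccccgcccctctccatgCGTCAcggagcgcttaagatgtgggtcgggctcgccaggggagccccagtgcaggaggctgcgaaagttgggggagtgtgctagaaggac
Ppp1r15a promoter, chr7:45526219-45526518, minus strand: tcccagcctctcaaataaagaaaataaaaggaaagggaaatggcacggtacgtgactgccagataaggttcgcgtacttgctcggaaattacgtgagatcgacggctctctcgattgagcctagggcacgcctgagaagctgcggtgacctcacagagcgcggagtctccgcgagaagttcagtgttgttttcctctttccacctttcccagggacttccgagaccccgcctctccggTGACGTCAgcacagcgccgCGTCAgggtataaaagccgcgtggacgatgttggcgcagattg
Cxcl2 promoter, chr5:90903649-90903948, plus strand: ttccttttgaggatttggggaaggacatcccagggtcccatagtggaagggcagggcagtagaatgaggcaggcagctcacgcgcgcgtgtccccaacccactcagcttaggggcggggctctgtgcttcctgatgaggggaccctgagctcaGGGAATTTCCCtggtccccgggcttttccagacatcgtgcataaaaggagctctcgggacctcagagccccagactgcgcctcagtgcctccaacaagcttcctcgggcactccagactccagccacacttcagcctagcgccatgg

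Genes that feed back on kinase and NF-kB signals rose in smaller steps. Of 12 tested phosphatases and feedback regulators of the mitogen-activated kinases, 7 rose and none fell (median log2 change 0.62). Dusp2, a nuclear phosphatase of activated leukocytes, went from 543, 722 and 661 normalised counts to 1111, 1537 and 1337 (1.05 ± 0.15, adjusted p = 0.00137). Dusp4 rose by 1.66 ± 0.33, Dusp5 by 0.95 ± 0.13, and the Sprouty genes Spry1 and Spry2 by 1.06 ± 0.23 and 0.73 ± 0.12. The count fell to between 3 and 7 when 1 sample was left out, and to 0 with depth as a covariate, and Dusp4 and Spry1 lost their calls in 2 and 4 of those fits. Of 12 NF-kB subunits and inhibitors, 3 rose: Tnfaip3, the A20 inhibitor (1.77 ± 0.12), Nfkbia, the main inhibitor IkBa (0.74 ± 0.13), and Nfkbid (0.43 ± 0.09, call lost in 5 such fits). The subunit genes Nfkb1 (0.04), Rel (-0.09) and Relb (0.33) were not called. Trib1, a pseudokinase gene chosen here after its values were seen, went from 885, 707 and 1033 to 4412, 4107 and 4552 (2.33 ± 0.13, adjusted p = 2.46e-07).

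Chaperone genes were part of the rise, at small folds. Of 12 heat shock genes tested, 7 rose and none fell, all 12 had a positive log2 change, and the median was 0.36. Hspa8, the constitutive chaperone, went from 26803, 26863 and 30225 normalised counts to 37069, 41445 and 36519 (0.46 ± 0.09, adjusted p = 0.0131). Hsph1 rose by 0.50 ± 0.10 and Hspa1a, the inducible chaperone, by 3.08 ± 0.51 from 2, 2 and 9 to 30, 44 and 38. Hspa1a and Hspa1b are near-identical copies between which reads can be split, and Hspa1b (26, 31 and 75 before, 161, 115 and 48 at day 4) overlapped between groups. The heat shock count ran from 2 to 8 when a sample was left out, was 4 after quantile normalisation, and 0 with depth as a covariate. Of 19 endoplasmic reticulum stress genes, 5 rose and none fell (median 0.23), and only 1, Dnajb9, was called with depth as a covariate. Pdia3, among the 5, lost its call in 7 of the fits that left out a sample. Dnajb9, a co-chaperone of the IRE1 and XBP1 branch, went from 577, 637 and 694 to 1393, 1404 and 1539 (1.19 ± 0.08, adjusted p = 1.09e-06), and Hspa5, the chaperone BiP, rose by 0.62 ± 0.09. Atf4, the transcription factor of the amino acid and unfolded protein responses, rose by 0.61 ± 0.10, while its target Chac1 fell by 0.71 ± 0.17 and Ddit3 (0.28 ± 0.15) was not called. Of 17 amino acid stress genes, 5 rose, Slc3a2, Atf4, Phgdh, Psat1 and Shmt2, and 1 fell, with 2 to 7 higher when a sample was left out and 2 after quantile normalisation. Hspa8, Chac1, Phgdh, Psat1 and Shmt2 lost their calls in 3, 5, 6, 7 and 7 of the fits that left out a sample. Whether handling of the marrow differed between the 2 collection days was not tested.

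**Figure D3:**
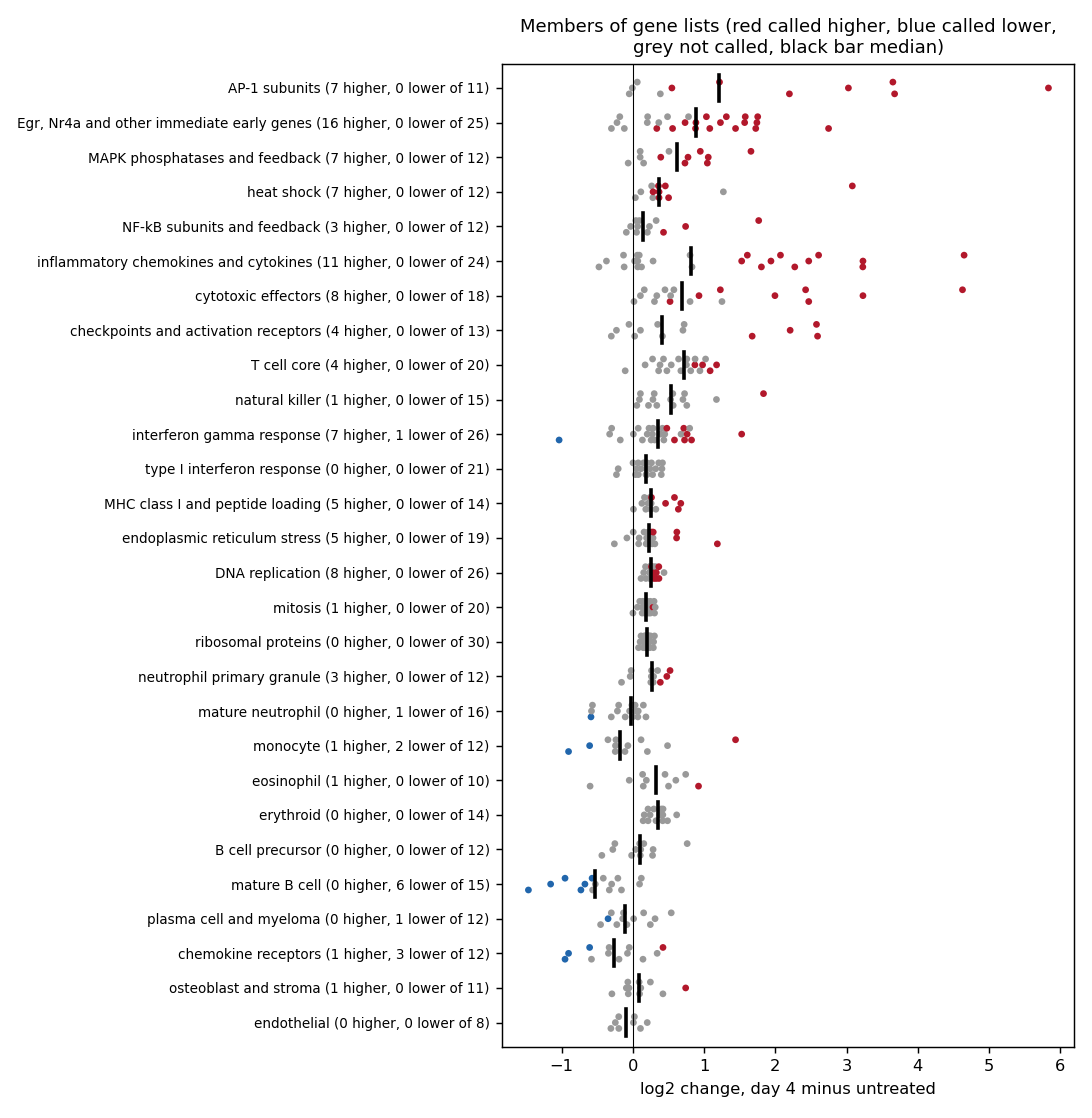
Each point is the log2 change of 1 tested gene at day 4, and each row is 1 gene list with the number called higher and lower. The point furthest to the right is Fosb at 5.83 in the AP-1 row, and the mature B cell row is the one with most blue points, 6 of 15.

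Chemokines and cytokines of innate and activated cells rose. Of 24 tested inflammatory genes, 11 rose and none fell, with a median log2 change of 0.82; the count was 9 to 12 when 1 of the 12 samples was left out and 5 with depth as a covariate. Cxcl2, a neutrophil attractant on chromosome 5 (90903871 to 90905938, plus strand, GRCm38), went from 74, 78 and 174 normalised counts to 2294, 1704 and 4182 (4.65 ± 0.33, adjusted p = 1.37e-06). Day 4 replicate 3 was the highest, and the groups did not overlap. Ccl3, which attracts monocytes and T cells, went from 198, 224 and 279 to 1510, 1154 and 1216 (2.47 ± 0.13, adjusted p = 1.58e-07). Osm, a cytokine of the interleukin 6 family, went from 1050, 782 and 1389 to 4870, 4898 and 5400 (2.27 ± 0.16), and its relatives Il6 and Lif rose by 1.80 ± 0.21 and 1.61 ± 0.29 from low levels. Il6st, their shared receptor chain gp130, fell from 2325, 2028 and 2198 to 1426, 1201 and 1334 (-0.73 ± 0.11, adjusted p = 0.00143). Il6, Lif and Il6st were not called with depth as a covariate. Xcl1, a lymphocyte chemokine that recruits cross-presenting dendritic cells, went from 14, 16 and 18 to 138, 74 and 104 (2.61 ± 0.43). Ptgs2, the inducible cyclooxygenase, rose by 1.94 ± 0.38 and was not called in 2 of the fits that left out a sample. Tnf (-0.48 ± 0.14), Il1b (0.07 ± 0.18) and Cxcl10 (0.28 ± 0.28) were not called.

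Among the genes named here outside these groups, Rgs1 rose most. Rgs1, on chromosome 1 (144242296 to 144249242, minus strand), encodes a regulator that shortens chemokine receptor signals, and it went from 36, 81 and 78 normalised counts to 1774, 1995 and 2083 (4.97 ± 0.23, adjusted p = 8.69e-08). Rgs16 rose by 2.98 ± 0.33, while the other 8 tested genes of the family were not called. Thbs1, which encodes the matricellular protein thrombospondin 1, went from 2714, 2312 and 2840 to 13336, 25278 and 22242 (2.91 ± 0.25, adjusted p = 1.26e-05). Plk2 and Plk3, stress-responsive polo-like kinases, rose by 2.52 ± 0.15 and 2.66 ± 0.22, and Plk3 went from 291, 299 and 497 to 2673, 1638 and 2525. As in 689 of the 691 called genes, the groups did not overlap for any of these 5 genes. Gdf15, a stress cytokine and target of p53, rose by 2.76 ± 0.51 from 6, 2 and 4 to 23, 46 and 28, but of 12 p53 targets tested 3 rose and 1 fell, and Mdm2 (0.08 ± 0.06) and Bax (0.20 ± 0.12) were not called. The pro-survival Bcl2a1a, Bcl2a1b and Bcl2a1d rose by 1.35, 2.11 and 1.45, and they are near-identical copies whose reads can be split. Among very low genes, Krt81 (0, 0 and 1 before, 5, 16 and 23 at day 4) and Ccdc184 (0, 1 and 2 before, 10, 10 and 13 at day 4) were called, and their fitted changes depend on the pseudocount. Krt81, Ccdc184 and Bcl2a1b lost their calls in 1, 8 and 6 of the fits that left out a sample.

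**Figure D4:**
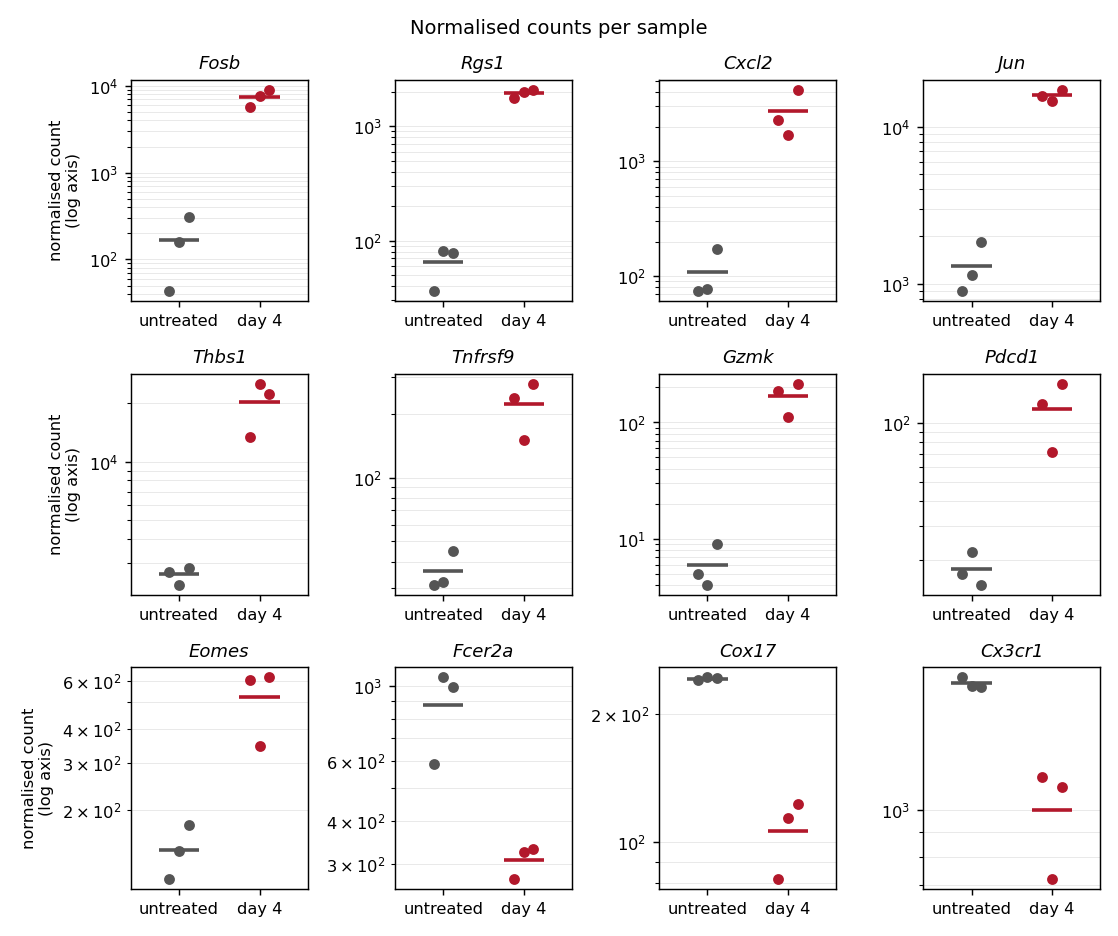
Normalised counts (log axis) of 12 genes are shown for each of the 3 untreated and 3 day 4 samples, with a line at each mean. All 12 genes were chosen among the called genes, of which 689 of 691 had no overlap, so the lack of overlap in every panel follows from the choice. The first 9 genes stand higher at day 4 and Fcer2a, Cox17 and Cx3cr1 lower.

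The receptor that the antibody targets, and other receptors of activated lymphocytes, were higher at day 4. Tnfrsf9, on chromosome 4 (150914562 to 150946102, plus strand), went from 31, 32 and 45 normalised counts to 239, 152 and 280 (2.58 ± 0.28, adjusted p = 9.51e-05). Of 13 checkpoint and activation receptors, 4 rose and none fell (median 0.41). Cd69, an early activation receptor that keeps lymphocytes in tissue, went from 295, 309 and 311 to 1089, 1488 and 1736 (2.21 ± 0.16, adjusted p = 2.02e-06). Pdcd1, which encodes PD-1, went from 17, 22 and 15 to 125, 71 and 159 (2.59 ± 0.26), and Ctla4 from 31, 46 and 37 to 102, 87 and 204 (1.67 ± 0.27). Lag3 (0.11 ± 0.11), Havcr2 (0.72 ± 0.32), Icos (0.35 ± 0.29) and Cd274 (0.41 ± 0.14) were not called. Among 17 genes of CD137 and related costimulation, Tnfsf4, the OX40 ligand, rose from 2, 2 and 2 to 30, 8 and 28 (2.74 ± 0.41), the adaptor Traf1 rose by 0.71 ± 0.17, and Icosl, the ICOS ligand, fell by 0.42 ± 0.07. Traf1 lost its call in 5 of the 12 fits that left out a sample. With depth as a covariate Ctla4, Tnfsf4, Traf1 and Icosl were not called, while Tnfrsf9, Cd69 and Pdcd1 kept their calls. Tnfrsf4, Tnfrsf18, Cd27 and Cd28 had log2 changes of 0.46, 0.66, 0.17 and 0.54 and were not called. Tnfsf9, the ligand of CD137, is not analysed here.

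Some effector genes of killer lymphocytes rose. Of 18 cytotoxic effectors, 8 rose, none fell, and the median log2 change was 0.69. The count ran from 6 to 12 when 1 of the 12 samples was left out and was 4 with depth as a covariate; the median was 1.046 without day 4 replicate 2 and 0.415 with depth. Serpinb6b lost its call in 2 of those fits. The 8 include the chemokine genes Ccl3 and Ccl4, which are also members of the inflammatory list above. Both kept their calls with depth as a covariate, so the counts of these lists are not independent. Gzmk, a granzyme of memory and exhausted-type CD8 T cells, went from 5, 4 and 9 normalised counts to 185, 111 and 216 (4.63 ± 0.26, adjusted p = 2.46e-07). Klrg1 rose by 2.42 ± 0.25, Ifng, from 5, 6 and 11 to 25, 34 and 34, by 1.99 ± 0.28, and the granzyme inhibitors Serpinb9 and Serpinb6b by 0.93 ± 0.17 and 1.23 ± 0.24. Gzmb (1.25 ± 0.34), Prf1 (0.58 ± 0.30) and Gzma (0.11 ± 0.29) were not called. Prf1 overlapped between the groups, with 114, 138 and 166 before treatment and 280, 102 and 304 at day 4. Eomes, a transcription factor of effector and memory CD8 T cells and of natural killer cells, went from 112, 142 and 176 to 606, 344 and 617 (1.83 ± 0.21, adjusted p = 0.000157). Tox, a factor of chronically stimulated T cells, rose by 1.66 ± 0.27, while Tbx21 (0.59 ± 0.23) was not called and Bcl6 fell by 0.66 ± 0.10. With depth as a covariate Eomes and Tox were not called, and Bcl6 kept its call.

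T cell core genes had a median log2 change of 0.71, with 4 of 20 members called higher. The median was 0.458 without untreated replicate 1 and 0.306 with depth as a covariate. Their summed level was 4969, 7828 and 7289 in the untreated samples and 10863, 7583 and 11824 at day 4, so the groups overlapped through day 4 replicate 2. Trac rose from 131, 212 and 214 to 471, 296 and 495 (1.17 ± 0.23), and Zap70, Thy1 and Cd247 rose by 0.98, 0.87 and 1.08. Cd8a (0.76 ± 0.27) and Cd3e (0.94 ± 0.30) were not called, nor was Cd4, at 577, 772 and 784 before and 669, 626 and 666 at day 4 (-0.11 ± 0.15). Trac, Thy1 and Cd247 lost their calls in 2, 4 and 5 of the fits that left out a sample. The count of 4 ran from 1 to 13 in those fits and was 0 with depth as a covariate. Of 15 natural killer genes only Eomes was called, and 0 were called with depth as a covariate. All 15 had a positive log2 change (median 0.53), and 5 stood higher at day 4 without overlap (13.5% over all genes). Their sums overlapped, at 2525 to 3174 before treatment and 2845 to 5292 at day 4. Ncr1, a receptor that defines natural killer cells, was at 214, 212 and 276 before treatment and at 372, 163 and 250 at day 4. Its log2 change of 0.09 was below the median of the list. The part of the number of T cells in the effector rises was not tested.

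**Figure D5:**
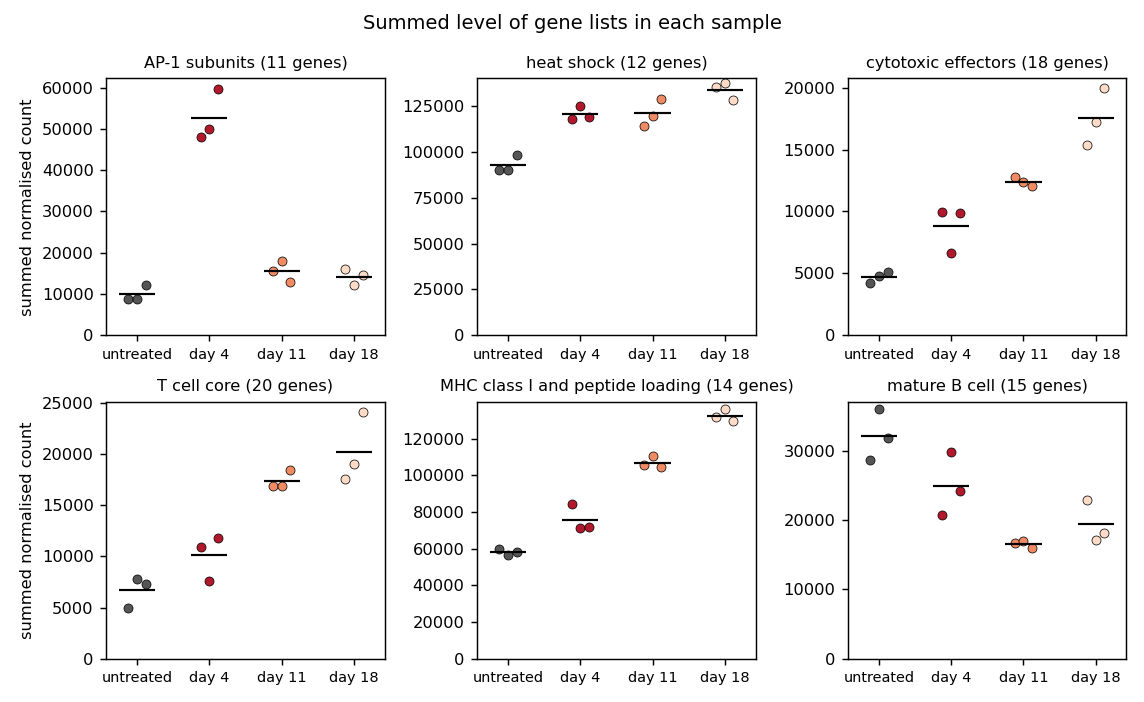
Summed normalised counts of 6 gene lists are shown for each of the 12 samples, 3 per group, with a bar at each mean. AP-1 genes peak at day 4 (48000 to 59701), day 4 T cell sums (7583 to 11824) overlap the untreated ones, and mature B cell sums (20662 to 29732) overlap them too.

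Interferon gamma targets and antigen presentation rose in part. Of 26 interferon gamma response genes, 7 rose and 1 fell (median 0.35, and 0.23 without day 4 replicate 1), and the higher count ran from 3 to 8 when a sample was left out and was 0 with depth as a covariate. Cxcl9, the T cell chemokine, went from 73, 71 and 114 normalised counts to 355, 158 and 258 (1.53 ± 0.25, adjusted p = 0.00393). The GTPase genes Tgtp2, Tgtp1 and Gbp3 rose by 0.82, 0.76 and 0.48, and Tgtp1 and Tgtp2 are close copies; Tgtp1 and Gbp3 lost their calls in 5 of those fits each. Irf1 (0.26 ± 0.08) was not called. None of 21 type I interferon response genes passed the test in limma, and 0 had an unadjusted p under 0.05; their median of 0.18 ran from -0.004 without untreated replicate 2 to 0.331 without day 4 replicate 2. Of 14 class I genes, 5 rose and none fell (median 0.25), all 14 with a positive log2 change: B2m, the light chain, went from 27487, 25483 and 27549 to 41507, 34217 and 35253 (0.46 ± 0.10, adjusted p = 0.0175). Nlrc5, the activator of class I genes, rose by 0.58 ± 0.11, and Ciita, the activator of class II genes, fell from 732, 1112 and 1020 to 428, 426 and 527 (-1.04 ± 0.21, adjusted p = 0.0144). The class I count was 3 after quantile normalisation and 0 with depth as a covariate. B2m was not called after quantile normalisation and in 3 fits that left out a sample, and Ciita was not called in 3 such fits, at -0.91 or further from 0.

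Genes of mature B cells fell. Of 15 tested, 6 fell and none rose, with a median log2 change of -0.53 that was -0.199 with depth as a covariate. Fcer2a, the low affinity IgE receptor CD23 of mature follicular B cells, went from 589, 1057 and 991 normalised counts to 271, 324 and 331 (-1.47 ± 0.24, adjusted p = 0.0032). Ighd, the IgD constant region, went from 1831, 3621 and 2949 to 974, 1399 and 1299 (-1.15 ± 0.24), and Cxcr5, the follicle homing receptor, fell by 0.95 ± 0.24. Bank1, Ralgps2 and Cd22 fell by 0.67, 0.57 and 0.73. Ms4a1 (-0.53 ± 0.23) and Pax5 (-0.21 ± 0.19) overlapped between the groups and were not called, and untreated replicate 1 was the lowest untreated sample for Fcer2a, Ighd and Cxcr5. The count of 6 ran from 1 to 6 when a sample was left out and was 0 with depth as a covariate. Fcer2a kept its call without each of the 12 samples, and the other 5 lost theirs in 2 to 8 of those fits. S1pr1, which lets lymphocytes leave tissue, fell by 0.76 ± 0.17, with its call lost in 4 of the fits that left out a sample.

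Plasma cell and myeloma genes showed little that passed the test. Of 12 tested, Tnfrsf13b, the receptor TACI, fell by 0.35 ± 0.09, and it lost its call in 8 of the 12 fits that left out a sample and after trimmed-mean rescaling. Sdc1, the plasma cell marker CD138, was at 675, 398 and 432 normalised counts before treatment and at 357, 360 and 351 at day 4 (-0.45 ± 0.17, not called), and Jchain at 0.31 ± 0.34 was not called. The immunoglobulin genes Igkc (-0.01 ± 0.23) and Ighm (0.02 ± 0.17) were not called. Ighg2b ranged from 754 to 11021 within the day 4 group.

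Myeloid genes moved in both directions. Of 12 monocyte genes tested, 2 fell, Cx3cr1 and Ccr2. Only 1 rose, Nr4a1 (1.44 ± 0.15), which is also among the immediate early genes above and kept its call with depth as a covariate. Cx3cr1, the fractalkine receptor of patrolling monocytes, fell from 1888, 1815 and 1803 normalised counts to 1171, 720 and 1119 (-0.90 ± 0.15, adjusted p = 0.00393). This call was lost with depth as a covariate. Ccr2, the receptor of classical monocytes for CCL2, fell by 0.61 ± 0.16 and lost its call in 8 of the 12 fits that left out a sample, while its ligand Ccl2 rose from 22, 7 and 9 to 102, 103 and 140 (3.23 ± 0.37). The monocyte genes Ly6c2 (0.11 ± 0.15) and Lyz2 (-0.24 ± 0.16) were not called, nor were any of 15 resident macrophage genes in limma (2 at an unadjusted p under 0.05). Of 16 mature neutrophil genes 1 fell, Fpr1, the formyl peptide receptor, by 0.59 ± 0.14, and Cxcr2 (-0.58 ± 0.16) and Csf3r (-0.57 ± 0.17) were not called. Of 12 primary granule genes 3 rose, Cst7, Nkg7 and Mpo, by 0.48, 0.52 and 0.39, and Cst7 and Nkg7 are also expressed by killer lymphocytes. Of the 12, 8 stood higher at day 4 without overlap (13.5% over all genes), the median was 0.27, and 0 were called with depth as a covariate. Mpo was not called after quantile normalisation and in 9 of the 12 fits that left out a sample. Epx, the eosinophil peroxidase, rose by 0.92 ± 0.21. Summed eosinophil genes stood at 4129 to 6172 before treatment and 6838 to 7517 at day 4, without overlap. Summed basophil and mast cell genes stood at 4955 to 6354 and 6749 to 8527, also without overlap. Each of these 2 lists had 1 call, and 0 with depth as a covariate. Of the 10 eosinophil genes 8 had a positive log2 change and 2 a negative one, and of the 8 basophil and mast cell genes 5 and 3. Sums without overlap were found for other lists too, among them the dendritic and adipocyte genes, which summed lower at day 4. None of the 14 erythroid genes was called in limma (3 at an unadjusted p under 0.05). All 14 had positive log2 changes, with a median of 0.35 that was 0.131 without untreated replicate 1 and 0.206 without day 4 replicate 3. Spp1, which encodes osteopontin, rose by 0.74 ± 0.14, and the calls of Fpr1, Cst7, Nkg7, Epx and Spp1 were lost in 4, 3, 5, 5 and 2 of those fits. The stromal chemokine Cxcl12 (0.25 ± 0.41) was not called.

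Replication genes rose by small steps and histone genes by larger ones. Of 26 DNA replication genes, 8 rose and none fell, all 26 had a positive log2 change, and the median was 0.26. Tyms, the thymidylate synthase, went from 1195, 1275 and 1248 normalised counts to 1528, 1660 and 1605 (0.37 ± 0.07, adjusted p = 0.00843), and Mcm3, Mcm4 and Lig1 rose by 0.30, 0.33 and 0.33. The count ran from 1 to 14 when a sample was left out and was 0 with depth as a covariate, and it was 3 after quantile normalisation. Mcm3 and Mcm4 lost their calls in 4 of the fits that left out a sample and Lig1 in 1. Of 20 mitosis genes 1 was called higher and none lower, and 0 were called with depth as a covariate. All 20 had a positive log2 change (median 0.19), and 13 had an unadjusted p under 0.05 in limma. In 17 of them every day 4 sample stood above every untreated one, against 13.5% of all genes. For comparison, all 30 ribosomal protein genes tested had a positive log2 change and none was called in limma (3 at an unadjusted p under 0.05). Their median of 0.20 was 0.093 after quantile normalisation, 0.025 with depth as a covariate and 0.301 without untreated replicate 2. Replication-dependent histone genes were grouped after their values were seen, so their count is a description. Of 43 tested, 17 were called higher and none lower (median 0.91), 2 were called with depth as a covariate, and their summed level went from 2897, 3224 and 3154 to 7490, 7176 and 7416. H2bc8 went from 72, 78 and 112 to 660, 632 and 830 (3.02 ± 0.19, adjusted p = 6.87e-07) and the linker histone H1f2 from 937, 1192 and 1282 to 3821, 3740 and 3698. Most histone mRNAs lack a poly(A) tail, and the libraries were made with an mRNA kit, so the levels are of what that selection kept. Sequence-similar histone genes can share reads.

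Other genes fell outside the groups above. Cox17, the copper chaperone of cytochrome oxidase, fell from 240, 244 and 243 normalised counts to 82, 114 and 123 (-1.20 ± 0.14, adjusted p = 0.000273), and day 4 replicate 1 was the lowest. Its call was lost with depth as a covariate. None of 22 respiratory chain genes was called in limma (4 at an unadjusted p under 0.05), but all 22 had a positive log2 change (median 0.13), opposite to Cox17. Their sums were 68934 to 75552 before treatment and 79119 to 83600 at day 4, without overlap. Gpr182, an endothelial chemokine scavenger, fell by 1.18 ± 0.24, and none of the 8 endothelial genes tested as a list was called in limma (1 at an unadjusted p under 0.05). Cacna1i, a T-type calcium channel, fell by 1.15 ± 0.23, and these calls were lost in 3 and 2 of the 12 fits that left out a sample. Fgf11, Ugt1a6a, Krt7, Pram1, Avpr2, Abca6, Magix, Kcnrg and Zc3h12b fell, all from low levels, by 0.97 to 1.84. Each of these 9 lost its call in 4 to 10 of those fits. The small nucleolar RNAs Snord89 and Snora17 and the antisense transcript Cd55os fell by 1.80, 1.50 and 1.10, with calls lost in 4, 6 and 3 of those fits. The strand setting of the counting is not given in the sources used here, so Cd55os cannot be told apart from Cd55. Other falls were chosen after their values were seen. Crebrf, a regulator of the response to nutrients, fell from 1682, 1702 and 1720 to 1161, 1156 and 1094 (-0.58 ± 0.06, adjusted p = 0.00013), and Mir142hg, the host transcript of a leukocyte miRNA, from 1105, 1024 and 1017 to 717, 542 and 618 (-0.75 ± 0.11). The lipid transporters Abca1, Abca5, Abca6 and Abca9 fell by 0.87, 0.83, 1.03 and 0.72, 4 of 9 tested members of their family, and all but Abca1 lost their calls in 4 to 9 of those fits. Of 299 zinc finger genes named Zfp, 23 fell and 4 rose, and of 386 long intergenic RNAs 22 fell and 2 rose. With depth as a covariate 0 of these Zfp genes and 1 of these RNAs were called lower.

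Clock and glucocorticoid genes were looked at because time of day and stress hormones reach the marrow. Of 16 circadian genes, 4 rose and none fell. Per1, which immediate signals and glucocorticoids also induce, went from 450, 626 and 636 normalised counts to 2926, 2413 and 2851 (2.27 ± 0.15, adjusted p = 7.93e-07), and Ciart, Bhlhe40 and Nfil3 rose by 1.78, 1.30 and 0.54. The core clock genes Arntl (-0.07), Nr1d1 (0.25), Dbp (-0.30) and Per2 (0.02) were not called. Of 10 glucocorticoid targets, Per1, Il1r2, the decoy receptor (0.75 ± 0.12), and Tsc22d3, the leucine zipper GILZ (0.88 ± 0.20, call lost in 4 of the fits that left out a sample), rose. Sgk1 (0.11 ± 0.10) and Txnip (-0.28 ± 0.11) were not called. With depth as a covariate Per1 and Bhlhe40 kept their calls, and Ciart, Nfil3, Il1r2 and Tsc22d3 lost theirs. Collection hours are not in the labels, and their part was not tested.

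Day 11 was set against day 4 in the same fit to ask which day 4 levels had moved by then, and it shares the day 4 samples with the comparison above. At day 11, 108 genes (0.726%) stood higher than at day 4 and 142 (0.954%) lower. Of the 357 genes that rose by day 4, 80 were lower again at day 11, 25 were higher still and 252 were not called. Of the 334 that fell, 12 were higher again, 6 lower still and 316 not called. All 7 AP-1 genes that rose were lower again, and 12 of the 16 other immediate early genes: Fosb stood at 573, 461 and 496 normalised counts at day 11. Thbs1 stood at 2898, 4191 and 3751, below its day 4 values and above its untreated ones. Tnfrsf9 did not pass the test between the days (240, 144 and 346 at day 11), nor did Ccl4, and Gzmk, Pdcd1, Klrg1 and Tox rose further. Bcl6 and Il6st, which fell by day 4, were higher again at day 11.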

How the data were processed

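RNA from total bone marrow cells of 12 samples, 3 per group, was sequenced from a stranded mRNA library, per the labels' protocols. The authors deposited whole-number normalised counts per gene, per the file headers, which are held here as a score because their scaling rule and the strand setting are not given in the sources used here. Per the submitters' processing notes, STAR 2.3.0, featureCounts 1.4.6 of Subread, limma and GRCm38 were used.

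From the deposited values, log2(normalised count + 1) was fitted with limma 3.58.1 in R 4.3.3 over all 4 groups (8 residual and 5.73 prior degrees of freedom), with an intensity trend and Benjamini-Hochberg adjustment over the 14883 genes that reached 10 normalised counts in 3 or more samples; fold changes are on this scale and understate changes of low genes. The reads per sample were estimated from the spacing of low values, which assumes 1 factor per sample. Named genes are Tnfrsf9, the 20 largest rises and falls without overlap among called genes, the 4 called members of smallest adjusted p in each list, and other members where a list is described. Members and lists were chosen with earlier results of these data known. Promoters are from RefSeq (GRCm38.p6). A few genes are not reported here.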

Additional observations from a re-analysis of the deposited data

Results flagged for a closer look

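Levels at day 11 differed from those at day 4 by the test of that difference in limma for 108 genes that stood higher and 142 that stood lower, and the following named genes were among them. The log2 change from day 4 to day 11 was -3.86 for Fosb, -2.83 for Atf3, -2.81 for Rgs1, -2.56 for Cxcl2 and -2.45 for Thbs1. It was -2.14 for Jun, -1.9 for Fos, -1.84 for Egr1, -1.27 for Plk3 and -1.07 for H2bc8. These 10 genes had risen by day 4. Cacna1i and Fcer2a, which had fallen by day 4, were lower still at day 11, with changes of -1.38 and -1.36. Gzmk was higher still, with a change of 2.19. No group had more than 3 samples, so no single sample was tested as standing apart within its group.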

How the results depend on the processing

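The 691 genes called at day 4 (357 higher, 334 lower) numbered 416 (229 and 187) with no intensity trend, 1817 (927 and 890) with sample weights and 70 (58 and 12) with depth, as estimated, added as a covariate. The 189 called with a log2 change of at least 1 numbered 108 when the mean had to reach 40, 326 with sample weights and 54 with depth as a covariate. The 250 genes called between day 11 and day 4 numbered 141 with no trend and 763 with sample weights. Trimmed-mean rescaling, quantile normalisation, pseudocounts of 0.1 and 5, no filter and a fit of the 6 compared samples gave between 536 and 707 called genes. Leaving out 1 sample gave 269 to 1089 called (162 to 543 higher, 97 to 546 lower), 119 to 214 past a log2 change of 1, and 136 to 341 between day 11 and day 4. Of called genes in all, most were found without day 18 replicate 3 and fewest without day 4 replicate 3. Fewest lower genes were found without untreated replicate 3, and fewest between day 11 and day 4 without day 11 replicate 1. The causes were not tested. Of 169 called genes tried one by one, 93 were called in all 12 fits that left out a sample, 49 with depth as a covariate, and 0 changed direction under the alternatives run. Depth limits the low genes: at 16.0 to 25.2 M estimated reads, genes with a few counts have wide errors. No paired analysis was possible because the labels give no replicate numbers that tie samples across groups.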

Other observations

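Gene groups not described above had few members that passed the test in limma. None of 19 hypoxia and glycolysis genes, 18 cholesterol synthesis genes, 13 stem and progenitor genes or 11 megakaryocyte and platelet genes was called, and 5, 4, 2 and 0 of them had an unadjusted p under 0.05. Among 10 dendritic cell genes, Cd209a fell from 270, 409 and 333 normalised counts to 193, 153 and 229, and among 7 plasmacytoid dendritic cell genes, Siglech fell from 2467, 2512 and 2379 to 1745, 1824 and 1812. These calls were lost in 4 and 7 of the 12 fits that left out a sample, and both with depth as a covariate. Among 30 cytokine receptor and Jak-Stat genes, 2 rose and 2 fell: Il12rb1, a chain of the interleukin 12 receptor, went from 60, 78 and 98 to 181, 133 and 167 and was not called with depth as a covariate. Of 26 variable segments of the T cell receptor, grouped after their values were seen, 3 were called higher and none lower, and of 173 immunoglobulin variable segments none was called (12 at an unadjusted p under 0.05).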
